A study of Homo sapiens with 12 samples.

Results

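The immediate early genes described here were 10 genes of the 60660 listed in every library, taken by symbol: FOS, FOSB and FOSL1 of the FOS family, JUN, JUNB and JUND of the JUN family, ATF3, EGR1, IER2 and DUSP1. They were followed in mRNA sequencing of 2 human prostate cancer (PCa) cell lines, LNCaP and 22Rv1, each transfected with a negative control oligo (NC-mimic) or with a mimic of the PIWI-interacting RNA piR-4447944, and each starved of androgen in medium whose serum (10% CS-FBS) had been stripped with charcoal. Each line and oligo had 3 libraries, which gave 4 groups and 12 libraries. The question of the design was which mRNAs differ when the level of this piRNA is raised.

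LNCaP cells come from a lymph node metastasis and grow in response to androgen. 22Rv1 cells come from a xenograft that relapsed after castration of its host. The mimic was a synthetic RNA oligo carrying a monophosphate and 2′ O-methoxy groups, delivered with lipofectamine, and the medium was replaced after transfection, so all 12 libraries share a transfection, a change of medium and the androgen deprivation. No untransfected cells and no cells in complete serum were analysed here. The dose and the time from transfection to lysis are not given in the sources used here, and the level of the piRNA was not analysed here. The labels do not say whether libraries of a group came from separate cultures, so the p-values below measure the spread between libraries, which may be technical.

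Immediate early genes are switched on within minutes of a stimulus, such as a growth factor, fresh serum or stress, without the need for new protein. Kinases of the ERK, JNK and p38 pathways act on factors already bound at the promoter, including SRF with its ELK partners at a CArG box and CREB or ATF factors at a cAMP response element (CRE), and the mRNAs made are short-lived. FOS and JUN proteins pair to form the AP-1 transcription factor.

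The following stretches of promoter carry the elements these genes are known for, and are shown as background. Their part in the levels described below was not tested. They come from RefSeq promoters of GRCh38.p14 (250 bases before to 50 after the start), which covered 9 members. Capitals mark the CArG box in EGR1, the CRE (TGACGTCA) in DUSP1 and JUND, the CRE core (TGACG) in FOS and the TATA box (TATAA, plus strand of the gene) in FOS.
EGR1, plus strand, chr5:138465364-138465393: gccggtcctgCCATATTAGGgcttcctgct
EGR1, plus strand, chr5:138465386-138465415: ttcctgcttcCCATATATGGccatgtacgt
DUSP1, minus strand, chr5:172771302-172771331: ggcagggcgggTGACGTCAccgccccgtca
JUND, minus strand, chr19:18281804-18281833: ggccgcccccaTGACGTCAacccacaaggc
FOS, plus strand, chr14:75278751-75278780: gtggttgagcccgTGACGtttacactcatt
FOS, plus strand, chr14:75278782-75278811: ataaaacgcttgtTATAAaagcagtggctg
On either strand, a CRE core stood in the promoters of 8 of the 9 members, against 24.6% of all 35116 promoters in the table, and a whole CRE, which contains the core, in 2, against 1.85%. Within this window a CArG box was found in 1 member, EGR1, against 1.29% of all promoters. Bases more than 250 before the start were not searched, so a box farther upstream in FOS or another member would be missed. TATAA on the gene's own strand was found in 6 members, against 14.8%, and in FOS, FOSB, JUNB, JUND and DUSP1 it began 29 to 33 bases before the start. The binding sequence of EGR factors, GCGNGGGCG, was found in 1 member (EGR1), against 9.43%, and the AP-1 site TGANTCA in 0 of 9, against 7.71%. These are matches of letters in the window and not evidence of binding.

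Depth was 12161091 to 22179601 expected counts per library, so members with a few counts per library are known with little precision. Luminal markers of prostate were present in all 12 libraries, among them KRT8 (346.6 to 821.1 TPM, a level per transcript length scaled to the same total in every library), and the defining immune and endothelial markers PTPRC, CD3E and PECAM1 were at 0.35 TPM or less. CD68, a macrophage marker also found in other cells, reached 6.02 TPM in LNCaP, and in 22Rv1 it was at 2.36 and 4.03 TPM in the replicate 3 libraries named next, against 0 to 1.64 in the others. PTPRC was at 0.33 and 0.35 TPM in those 22Rv1 replicate 3 libraries, against 0 to 0.04 in all other libraries. Before any result, 2 libraries have to be set apart: replicate 3 of 22Rv1 with NC-mimic and replicate 3 of 22Rv1 with piR-4447944 mimic. A chi-square of counts against their group's other libraries came to 37.7 to 106.2 per gene, and to 3.43 to 15.03 for all other pairs within groups. In these 2 libraries TMPRSS2, an androgen-regulated protease gene, was at 11.1 and 10.7 TPM, against 22.9 to 58.6 in the other 22Rv1 libraries. The share of mitochondrial mRNA was 1.60% of counts in replicate 3 with the mimic, and 4.07% to 4.79% in the other 22Rv1 libraries, replicate 3 with NC-mimic among them. Summed stromal, immune and endothelial markers ranged from 8.90 to 31.8 TPM in 22Rv1 and from 27.5 to 45.4 TPM in LNCaP cells, with COL1A1 leading the sum. The part of these features in the results was not tested, and the results of the members are given with and without these 2 libraries. The fits without replicate 3 leave out the replicate 3 libraries of LNCaP as well.

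By level, the JUN family and IER2 led and the FOS family came last. The TPM scale, which is per length, allows genes to be compared. In LNCaP cells with NC-mimic the mean ± SD (n = 3) was 112.7 ± 21.4 TPM for JUND, 50.8 ± 1.52 for IER2, 45.9 ± 4.38 for JUN, 42.2 ± 8.20 for JUNB, 30.4 ± 2.02 for ATF3 and 20.5 ± 1.24 for DUSP1. EGR1 (1.45 ± 0.34), FOS (1.3 ± 0.70), FOSB (0.54 ± 0.04) and FOSL1 (0.16 ± 0.12) followed at far lower TPM. The ranges of IER2 and JUN, of JUN and JUNB, and of EGR1 and FOS overlapped, and the other neighbours in this order did not. With both 22Rv1 replicate 3 libraries left out, the order of the mean TPM of the 10 genes was the same in all 4 groups.

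JUND, the JUN protein that is steadily present in resting cells, had the highest TPM. It stood at 109.6, 135.6 and 93.0 TPM in LNCaP NC-mimic, 111.9, 128.9 and 123.7 in LNCaP mimic, 221.9, 240.0 and 300.01 in 22Rv1 NC-mimic, and 191.6, 217.5 and 353.0 in 22Rv1 mimic libraries. Every 22Rv1 library was above every LNCaP library. Its TPM, and with it the size of its lead, rests on a length that the quantification set between 900 and 1204 bases by library, since the gene has transcripts of 1929 and 500 bases. In counts scaled to library size alone (CPM), its mean in LNCaP NC-mimic was 66.8, below JUN (95.6) and IER2 (81.4).

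JUN, the classic partner of FOS, lay between 40.1 and 56.6 TPM in 10 libraries. Its TPM was 46.3, 41.3 and 50.05 in LNCaP NC-mimic, 51.0, 55.9 and 56.6 in LNCaP mimic, 40.1, 42.9 and 78.9 in 22Rv1 NC-mimic and 42.8, 50.7 and 152.9 in 22Rv1 mimic libraries. JUNB, which pairs with FOS proteins and tempers JUN in many cells, was at 42.6, 33.8 and 50.2 TPM in LNCaP NC-mimic, 49.7, 44.98 and 52.8 in LNCaP mimic, 29.2, 26.99 and 84.8 in 22Rv1 NC-mimic and 35.4, 31.9 and 95.0 in 22Rv1 mimic libraries. For both genes the highest library of each 22Rv1 group was replicate 3, and for JUNB replicates 1 and 2 of 22Rv1 NC-mimic lay below all LNCaP libraries.

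FOS, the AP-1 subunit most often used as a sign of recent stimulation, was low in 10 libraries and high in 2. It was at 2.10, 0.91 and 0.88 TPM in LNCaP NC-mimic, 1.60, 0.88 and 1.85 in LNCaP mimic, 2.90, 2.34 and 37.2 in 22Rv1 NC-mimic and 2.55, 3.90 and 46.0 in 22Rv1 mimic libraries. In expected counts the same libraries held 17 to 45 in LNCaP and 47 to 90 in replicates 1 and 2 of 22Rv1, against 663 and 842 in the replicate 3 libraries. The lowest 22Rv1 library (2.34 TPM) lay just above the highest LNCaP library (2.10 TPM). FOSB, a close relative of FOS, ranged from 0.28 to 0.75 TPM in LNCaP, was at 1.23, 0.37 and 5.70 in 22Rv1 NC-mimic and at 3.00, 0.65 and 5.68 in 22Rv1 mimic libraries. FOSL1, which encodes FRA1, was nearly silent. It had 1 to 4 counts in each LNCaP library, 4, 0 and 79 in 22Rv1 NC-mimic and 0, 0 and 18 in 22Rv1 mimic libraries. A count of 0 allows up to 0.17 to 0.21 CPM, the counts scaled to library size, in these 3 libraries, a floor of 3 counts that covers counting error only. FOSL1 did not pass the filter on low counts, so 9 members entered each main test. In the alternative fits with no such filter it was tested too, as 1 of 10 members. There it was called higher in 22Rv1 than in LNCaP with NC-mimic, by a log2 fold change of 3.98 (SE 1.35, edgeR adjusted p = 0.0284), beside 36.2% of all genes called. That call rested on the 79 counts of replicate 3 of 22Rv1 NC-mimic.

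ATF3, a stress-induced factor that pairs with JUN proteins, was at 28.4, 30.4 and 32.5 TPM in LNCaP NC-mimic and 48.8, 34.1 and 38.8 in LNCaP mimic libraries. It was at 29.5, 25.6 and 141.3 in 22Rv1 NC-mimic and 31.2, 32.6 and 217.7 in 22Rv1 mimic libraries. The LNCaP groups did not overlap, and the 22Rv1 groups did. EGR1, a zinc finger factor induced through SRF, was at 1.29, 1.21 and 1.84 TPM in LNCaP NC-mimic, 1.51, 1.29 and 2.13 in LNCaP mimic, 5.92, 5.84 and 27.8 in 22Rv1 NC-mimic and 5.01, 5.79 and 23.7 in 22Rv1 mimic libraries. All 6 22Rv1 libraries were above all 6 LNCaP libraries.

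IER2, a small nuclear protein of the same response, ranged from 49.2 to 60.7 TPM in LNCaP and from 88.0 to 126.2 TPM in 22Rv1 cells, with no overlap. DUSP1, the phosphatase that switches p38, JNK and ERK off again, ranged from 19.3 to 21.9 TPM in LNCaP and was at 20.7, 20.2 and 44.9 in 22Rv1 NC-mimic and 21.9, 25.8 and 67.5 in 22Rv1 mimic libraries. The 2 replicate 3 libraries of 22Rv1 lay above all others, which spanned 19.3 to 25.8 TPM.

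**Figure D1:**
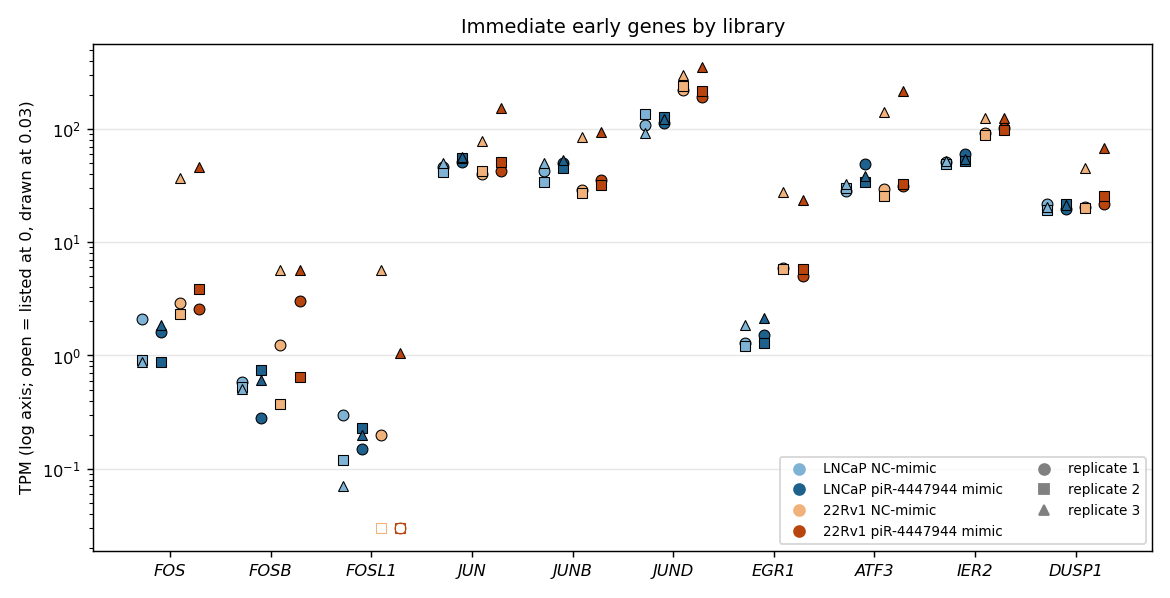
TPM (log axis) of the 10 immediate early genes in each of the 12 libraries, coloured by line and oligo, with the shape giving the replicate number and open symbols for values listed at 0. The replicate 3 triangles of both 22Rv1 groups stand above replicates 1 and 2 for every gene, as for FOS (37.2 and 46.0 TPM against 2.34 to 3.90). JUND, EGR1, IER2 and, by a small margin (2.34 against 2.10 TPM), FOS are higher in all 22Rv1 than in all LNCaP libraries.

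In LNCaP cells, piR-4447944 mimic was compared with NC-mimic, and none of the 9 members tested passed the threshold of 0.05 on the adjusted p (edgeR quasi-likelihood test with Benjamini-Hochberg adjustment over 16244 genes, adjusted p = 0.999 for all 9). This was also the case for the genes as a whole, of which 0% passed, while 433 genes (2.67%) had an unadjusted p under 0.05, and DESeq2 called 2 genes, no member among them. The log2 fold changes of the members were above 0 for 9 of 9, from 0.03 to 0.57 with a median of 0.19, while the median of all genes tested was -0.003. The study's own rule, an unadjusted p under 0.05 with a log2 fold change beyond 0.2 in size, was met by 2 of 9 members against 2.22% of all genes, both higher with the mimic, a direction met by 1.38%. They were ATF3 with a log2 fold change of 0.34 (SE 0.09, unadjusted p = 0.00244 in the edgeR fit) and JUN with 0.23 (SE 0.09, unadjusted p = 0.0196 in the edgeR fit).

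ATF3 was at 29.96, 35.1 and 32.5 CPM with NC-mimic and at 41.2, 42.7 and 39.9 CPM with the mimic in LNCaP cells. JUND was at 67.3, 65.3 and 67.9 CPM and at 68.7, 76.1 and 77.3 CPM. These were the 2 of 9 members whose LNCaP groups did not overlap on the CPM scale, against 7.95% of all genes, each with a two-sided exact permutation p of 0.1, the smallest that 3 against 3 libraries can give. For JUND the log2 fold change was 0.15 (SE 0.07), and on the TPM scale its groups overlapped. FOS had the largest estimate, 0.57, with an SE of 0.41 on 17 to 45 counts per library, and it was 0.19 (SE 0.50) without the replicate 3 libraries and 0.0249 to 0.97 over 14 alternative fits. DUSP1 (0.03, SE 0.10) and IER2 (0.07, SE 0.08) had narrow errors around values near 0.

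The call of ATF3 and JUN by the study's rule depended on the test. DESeq2 with shrunken fold changes gave 0 members by this rule, but only 3 of all 16244 genes (0.0185%) met it there. That count of 0 therefore does not set the members apart from other genes. The fit of all 12 libraries gave 0 members as well (0.897% of genes). Leaving out NC-mimic replicate 1 or 2, or mimic replicate 2 or 3, gave 1 member, where 1.72% to 2.89% of genes met the rule, and leaving out NC-mimic replicate 3 gave 3, where 6.05% did. The replicate block and the fit with no filter on low counts gave 3 members, with 3.13% and 3.06% of genes. With all replicate 3 libraries left out, the log2 fold change was 0.37 (SE 0.10) for ATF3, 0.29 (SE 0.08) for JUN and 0.33 (SE 0.11) for JUNB, with edgeR adjusted p of 0.627, 0.627 and 0.709, where 0.0305% of genes had an adjusted p under 0.05. These 3 members met the study's rule in that fit, as did 5.67% of genes.

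In 22Rv1 cells, 0 of the 9 members differed between mimic and NC-mimic, by the adjusted p (0% of 16898 genes), or by the study's rule (1.48% of genes, each of them with an unadjusted p under 0.05), in edgeR's quasi-likelihood test. DESeq2 and limma on log2(TPM + 1) also called no member by either rule. Of all genes they called 0.00592% and 0.0123% by the adjusted p, and 1.64% and 2.83% by the study's rule. FOS was given no p by DESeq2 here, so that fit did not test it. The spread between libraries was wide: the SE of the log2 fold change ran from 0.19 for IER2 to 1.35 for FOS, and the estimates from -0.29 for EGR1 to 0.49 for JUN, with 7 of 9 above 0. No member's groups were apart, against 8.71% of genes without overlap.

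In 22Rv1, same-numbered libraries were taken as paired. Replicates 1 and 2 correlated across numbers (0.19 and 0.12) much as within them (0.20 and 0.17). Only replicate 3 (0.36) was thus matched by its number, and a pairing of replicates 1 and 2 is not shown. With the number as a block the errors were smaller. FOS was then 0.11 (SE 0.20), JUN 0.34 (SE 0.17), DUSP1 0.28 (SE 0.14), ATF3 0.15 (SE 0.16) and EGR1 -0.23 (SE 0.15), and no member passed either rule, while the number of all genes that met the study's rule went from 250 to 420 (2.49%). Between same-numbered libraries, the log2 difference of mimic over NC-mimic ran from 0.05 to 0.84 for JUN and from 0.08 to 0.27 for JUNB. It ran from 0.07 to 0.50 for DUSP1, from 0.0006 to 0.03 for IER2 and from -0.32 to -0.10 for EGR1. For FOS, FOSB, JUND and ATF3 it took both signs. How many of all genes keep 1 sign in every pair was not counted. With all replicate 3 libraries left out, ATF3 was at -0.06 (SE 0.13), JUND at -0.02 (SE 0.10), JUN at 0.10 (SE 0.10), FOS at 0.19 (SE 0.37) and EGR1 at -0.16 (SE 0.19), and no member was called by the adjusted p (0.0234% of genes) or the study's rule (4.57%). In the 22Rv1 libraries that remain, then, JUND and ATF3 have the opposite sign to the estimate from all 6, and so has FOSB, at 0.80 (SE 0.64) against -0.12 (SE 1.06).

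The mimic effect of the 2 lines was compared in 1 fit of all 12 libraries, and 0 of 9 members differed between lines, by adjusted p (0% of 18720 genes) or by the study's rule (3.26%). Unadjusted p ranged from 0.564 for DUSP1 to 0.946 for ATF3 in this edgeR fit. Without the replicate 3 libraries, ATF3 met the study's rule, with a mimic effect in 22Rv1 that was lower by 0.43 on the log2 scale than in LNCaP (22Rv1 minus LNCaP -0.43, SE 0.17, unadjusted p = 0.0216 and adjusted p = 0.678 in edgeR), where 7.08% of genes met the rule.

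**Figure D2:**
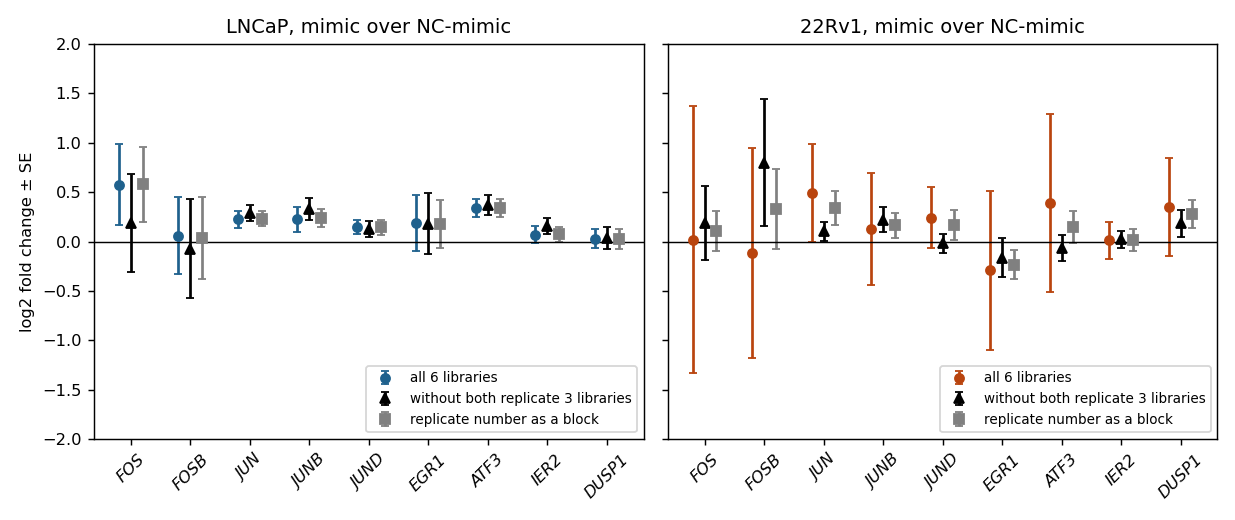
Log2 fold change of piR-4447944 mimic over NC-mimic for the 9 members tested, with bars of 1 SE, in LNCaP (left) and 22Rv1 (right), from all 6 libraries of the line, without both replicate 3 libraries, and with the replicate number as a block. In LNCaP ATF3 (0.34), JUN (0.23), JUNB (0.22) and JUND (0.15) lie clear of 0 by over 1 SE in each fit. This distance is no test, and no member passed the adjusted threshold. In 22Rv1 the SE of FOS shrinks from 1.35 to 0.20 with the block.

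Among the wider pathway in the same mimic comparisons, no gene of 4 lists (AP-1 partners, other immediate early genes, upstream kinases and factors, and ERK feedback and output) passed the adjusted threshold in either line. By the study's rule in LNCaP, 2 of 20 other immediate early genes, 1 of 7 AP-1 partners, 0 of 17 upstream genes and 0 of 10 ERK feedback genes were called, beside 2.22% of all genes, and in 22Rv1 0 of 24, 0 of 8, 0 of 17 and 0 of 11, beside 1.48%. The AP-1 partner was JDP2, a repressor that pairs with JUN, at a log2 fold change of 0.44 (SE 0.18, edgeR adjusted p = 0.999). KLF4, a zinc finger factor, was at 7.36, 6.97 and 6.94 CPM with NC-mimic and 10.2, 8.43 and 9.92 CPM with the mimic (0.42, SE 0.15, edgeR adjusted p = 0.999), with no overlap. The second of the other immediate early genes was SGK1, a kinase, at -1.35 (SE 0.51, edgeR adjusted p = 0.999), which falls outside the rule for named genes and was picked after its values were seen. The median log2 fold change of the lists in LNCaP lay between -0.05 and 0.07.

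The level of these genes was then compared between the lines, 22Rv1 against LNCaP, both with NC-mimic. These libraries are the controls of the mimic comparisons as well. In 22Rv1 cells JUND, IER2, EGR1 and FOS were higher, and no member was lower: 4 of 9 members had an adjusted p under 0.05 in edgeR's quasi-likelihood test, and so had 58.4% of all 17497 genes tested, 30.9% higher and 27.5% lower in 22Rv1. The median log2 fold change of the 9 members was 0.97, and that of all genes 0.01. In a comparison where most genes differ, the share of members called was no larger than that of all genes.

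JUND was higher by a log2 fold change of 0.97 (SE 0.14, edgeR adjusted p = 0.000609) and IER2 by 0.95 (SE 0.14, edgeR adjusted p = 0.000747). EGR1 was higher by 3.25 (SE 0.66, edgeR adjusted p = 0.00324), at 2.80, 2.62 and 4.14 CPM in LNCaP and 13.3, 13.6 and 64.8 CPM in 22Rv1 cells. FOS was higher by 3.94 (SE 1.13, edgeR adjusted p = 0.0168), at 1.92, 0.87 and 1.10 CPM in LNCaP and 4.10, 3.04 and 54.1 CPM in 22Rv1 cells. For EGR1 and FOS the size of the difference was set by replicate 3 of 22Rv1, although the groups did not overlap for any of these 4 genes (67.2% of all genes did not; two-sided exact permutation p = 0.1, the smallest possible).

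Without the replicate 3 libraries, EGR1 remained higher in 22Rv1 by 2.29 (SE 0.25, edgeR adjusted p = 3.95e-06), FOS by 1.34 (SE 0.46, edgeR adjusted p = 0.0218), IER2 by 0.86 (SE 0.09) and JUND by 0.81 (SE 0.10), with 65.2% of all genes called. JUNB was then lower in 22Rv1, at -0.38 (SE 0.13, edgeR adjusted p = 0.0240), where all libraries had given 0.21 (SE 0.42). FOSB (0.06, SE 0.57), ATF3 (0.11, SE 0.13), JUN (0.01, SE 0.10) and DUSP1 (0.06, SE 0.13) came close to 0, against 2.11 (SE 0.92), 1.21 (SE 0.55), 0.30 (SE 0.24) and 0.54 (SE 0.30) with all 6 libraries. The call of FOS was lost when LNCaP NC-mimic replicate 2 (edgeR adjusted p = 0.0730) or replicate 3 (edgeR adjusted p = 0.0691) was left out, and with limma on log2(TPM + 1) (adjusted p = 0.110). FOSB and ATF3 were called higher when replicate 1 or replicate 2 of 22Rv1 NC-mimic was left out, with edgeR adjusted p of 0.0285 to 0.0424, which left replicate 3 as 1 of 2 libraries on the 22Rv1 side.

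The libraries with piR-4447944 mimic gave the same comparison on separate samples, an alternative added after the data were seen. FOS (3.43, SE 1.13), EGR1 (2.81, SE 0.66), JUND (1.09, SE 0.30) and IER2 (0.91, SE 0.14) were again higher in 22Rv1, with edgeR adjusted p of 0.0395, 0.0107, 0.0194 and 0.00200, against 52.4% of all genes called. Without the replicate 3 libraries these 4 were still called higher, with FOS at 1.36 (SE 0.43) and EGR1 at 1.97 (SE 0.25), and JUNB (-0.47, SE 0.10, edgeR adjusted p = 0.00239) and ATF3 (-0.31, SE 0.10, edgeR adjusted p = 0.0228) were lower in 22Rv1, against 67.6% of all genes called. EGR1, IER2, JUND and FOS were thus higher in 22Rv1, and JUNB lower, in both oligo groups once the replicate 3 libraries were out.

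**Figure D3:**
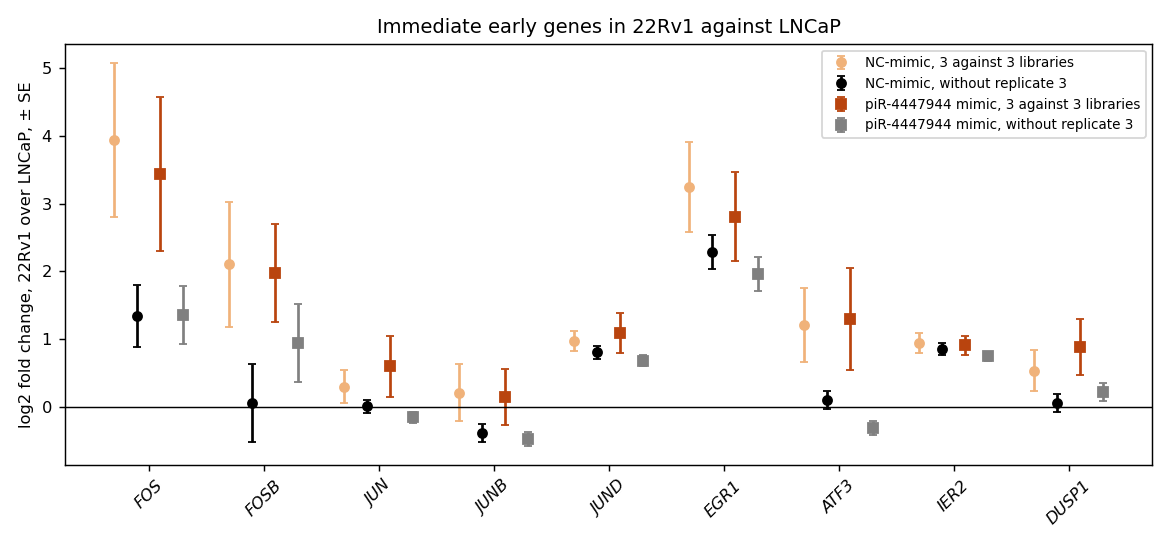
Log2 fold change of 22Rv1 over LNCaP with bars of 1 SE for the 9 members, in NC-mimic and in piR-4447944 mimic libraries, each with and without replicate 3. EGR1, FOS, JUND and IER2 stay above 0 in all 4 fits, while JUNB moves from 0.21 to -0.38 and ATF3 from 1.21 to 0.11 in the NC-mimic libraries without replicate 3.

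The genes around the members differed between the lines in both directions. The counts below stand beside 30.9% of all genes higher and 27.5% lower in 22Rv1, and 65.2% called in either direction without replicate 3. Of 24 other immediate early genes tested, 16 were higher and 1 was lower in 22Rv1 (15 and 1 of 24 without replicate 3). ARC, a protein of synapses induced by activity, was higher by 4.76 (SE 1.32, edgeR adjusted p = 0.0144), and by 2.22 (SE 0.83) without replicate 3. EGR3, a relative of EGR1, was higher by 4.14 (SE 0.98, edgeR adjusted p = 0.00673), and by 3.07 (SE 0.82) without replicate 3. CCN2, a secreted matrix protein, had 0 counts in all 3 LNCaP NC-mimic libraries and 6.68 ± 0.75 CPM (SD, n = 3) in 22Rv1 NC-mimic, at least 122.9-fold higher against a floor of 3 counts over the LNCaP group.

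Of 11 genes of ERK feedback and output, 8 were higher in 22Rv1 and 0 lower (7 and 2 of 11 without replicate 3), with a median log2 fold change of 0.93. SPRY2, an inhibitor of receptor tyrosine kinase signalling, was higher by 4.49 (SE 0.39, edgeR adjusted p = 3.88e-05), and by 4.51 (SE 0.32) without replicate 3. The ETS factors ETV5 (5.51, SE 0.94, edgeR adjusted p = 0.00133) and ETV4 (4.33, SE 0.56, edgeR adjusted p = 0.000322), which are made in response to ERK, were higher too, by 4.33 (SE 0.56) and 3.96 (SE 0.43) without replicate 3. DUSP6, the ERK phosphatase, was higher by 3.75 (SE 0.67, edgeR adjusted p = 0.00174), and by 2.50 (SE 0.37) without replicate 3, and falls outside the rule for named genes, picked after its values were seen. Of 8 AP-1 partners, 4 were higher and 3 lower (6 and 3 of 9 without replicate 3), among them BATF3 (4.11, SE 0.99), MAFF (3.14, SE 0.46) and JDP2 (-1.81, SE 0.64), with edgeR adjusted p of 0.00761, 0.000587 and 0.0393. Without replicate 3 they were at 3.11 (SE 0.88), 2.45 (SE 0.30) and -2.89 (SE 0.36). Upstream kinases and factors went mostly the other way, with 1 higher and 7 lower of 17 (1 and 11 of 17 without replicate 3). SRF, which binds the CArG box, was higher by 0.84 (SE 0.12, edgeR adjusted p = 0.000512), and its partners ELK3 (-1.58, SE 0.34, edgeR adjusted p = 0.00467) and MRTFB (-0.77, SE 0.11, edgeR adjusted p = 0.000510) were lower. Without replicate 3 SRF was at 0.87 (SE 0.13), ELK3 at -2.03 (SE 0.23) and MRTFB at -0.77 (SE 0.10). These levels say nothing of kinase activity, which was not measured.

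These genes also varied within 22Rv1, between replicate 3 and replicates 1 and 2 of the same group. This is given as a description, with no test, since 1 library stands against 2. In CPM, replicate 3 over the mean of replicates 1 and 2 was 15.1 for FOS in NC-mimic and 13.5 in mimic libraries, 10.2 and 4.43 for FOSB, 4.82 and 4.34 for EGR1, and 4.45 and 6.98 for ATF3. JUNB followed at 3.07 and 2.80, DUSP1 at 2.24 and 2.82, JUN at 1.89 and 3.17, JUND at 1.37 and 2.08 and IER2 at 1.35 and 1.36. FOSL1, with 4 and 0 counts in replicates 1 and 2 of NC-mimic and 0 and 0 in those of the mimic, had too few for such a ratio, and its counts are given above. Of the 9 members tested, FOS had the highest ratio in both groups and IER2 the lowest.

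A log2 ratio over 1 was reached by 6 of 9 members in NC-mimic libraries, against 11.6% of all 18720 genes, and by 8 of 9 in mimic libraries, against 14.6%. The same 6 genes, FOS, FOSB, JUNB, EGR1, ATF3 and DUSP1, passed in both groups, against 5.65% of all genes. In LNCaP cells it was reached by 0 of 9 in NC-mimic libraries (2.99% of genes) and 0 of 9 in mimic libraries (3.4%). High ratios were thus found with either oligo in 22Rv1 cells, and the difference from LNCaP cells was not tested. Beside the lower TMPRSS2 given above, COL1A1 was at 11.8 and 21.7 TPM in the 22Rv1 replicate 3 libraries against 4.23 to 6.15 in the other 22Rv1 libraries. COL1A2 was higher too, at 1.55 and 0.74 TPM against 0 to 0.21. Of the other stromal markers, DCN (0.67 and 0.51 TPM against 0.38 to 2.89) lay within the range of the others. LUM (2.60 and 4.52 TPM against 2.87 to 4.35) lay below and above it. The part of these differences was not tested. In bulk RNA, a change in every cell and a larger one in some cells cannot be told apart.

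Other immediate early genes moved in the same libraries. Of 24, 13 had a log2 ratio over 1 in NC-mimic and 13 in mimic libraries, 12 of them in both. ARC was at 3.99 and 2.23, EGR3 at 2.53 and 3.94, and NR4A3, an orphan nuclear receptor, at 2.32 and 3.11 on this log2 scale. ERK feedback genes passed in 5 and 6 of 11, 5 of them in both, with DUSP5 at 4.21 and 3.83, DUSP4 at 2.66 and 2.49 and DUSP6 at 2.00 and 2.30. These are phosphatases that act on MAP kinases. AP-1 partners passed in 3 and 4 of 8, with JDP2 at 2.28 and 3.06, and FOSL2, which encodes FRA2, at 0.60 and 2.48. Of 17 upstream kinases and factors, 1 passed in both groups, ELK3 at 1.19 and 1.02. Genes in this paragraph were picked for their values, apart from those the rule had named.

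**Figure D4:**
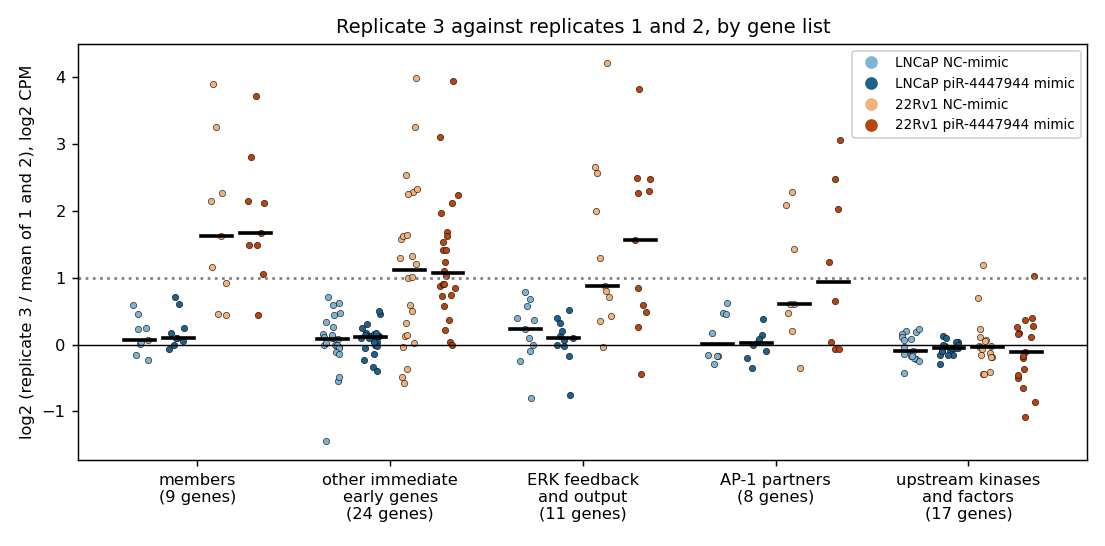
Log2 ratio of replicate 3 to replicates 1 and 2 within each group, 1 point per gene, by gene list, with a bar at the median and a dotted line at 1. The medians of the members are 1.62 and 1.67 in the 22Rv1 groups and 0.06 and 0.10 in the LNCaP groups, and those of the upstream kinases and factors lie between -0.12 and -0.03 in all 4 groups.

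How far the members varied together rested on these libraries. After the group mean was taken off, the Pearson correlation of log2 CPM between pairs of the 9 members over 12 libraries had a median of 0.93 (36 pairs, 0.77 to 0.98). Without the 22Rv1 replicate 3 libraries the median over 10 libraries was 0.20 (-0.59 to 0.79). The correlations are a description, and their points share libraries and groups.

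By the same measure, the genes most like FOS over 12 libraries were FEZ1, BTG2, IFRD1, ZBTB18 and TTBK2, each with r of 0.98. Those most like EGR1 were YARS1, HES2, RRAS, GPR161 and ASS1, with r of 0.99, and those most like ATF3 were BMF, TGIF1, RNF150, TNFRSF10B and GALNT10, with r of 0.99 to 1.00. Over the 10 libraries without 22Rv1 replicate 3, r was 0.58 to 0.84 for the FOS genes, 0.83 to 0.95 for the EGR1 genes and -0.55 to 0.70 for the ATF3 genes. The genes like EGR1 thus kept an r of 0.83 or more in the other libraries, and of those like ATF3 RNF150 had an r of 0.70 and the other 4 of 0.21 or less.

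In structure the members were short genes. Their span had a median of 4163 bases (1830 for JUNB to 55444 for ATF3), against 27424 for 20046 protein-coding genes, and their main transcript had a median of 3 exons, against 8. JUN, JUNB and JUND have 1 exon. The motif ATTTA, known from short-lived mRNAs, stood in the 3′ untranslated region of 9 of 10 members, all but IER2, against 65.8% of protein-coding genes. FOS, at chr14:75278826-75282230 of hg38, held 5 copies, and DUSP1, at chr5:172768096-172771195, held 4.

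JUNB (chr19:12791486-12793315) overlaps HOOK2 on the opposite strand, and IER2 (chr19:13150411-13154911) overlaps 2 genes on the opposite strand. Whether counting used the strand is not given in the sources used here, so reads of JUNB and IER2 cannot be told apart from those of these genes without it. JUNB, EGR1 and DUSP1 had 1 length in all libraries, while the estimated length of FOSB varied by 2.72-fold, that of FOSL1 by 1.78-fold and that of FOS by 1.42-fold, so their TPM and counts do not move in the same proportion.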

How the data were processed

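Total RNA of 12 samples was sequenced as mRNA libraries. Per the submitters' notes, STAR 2.7.1a (hg38) made the alignments and RSEM 1.3.0 the gene values. The tables the authors deposited hold, per gene and library, expected counts (estimated reads, not normalized), TPM (scaled to a fixed total, length corrected) and transcript length in bases, averaged over isoforms. The annotation release and strand setting are not given in the sources used here. Groups came from the labels. The members and lists were chosen with earlier results of these data known.

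For each comparison, rounded expected counts went into edgeR 4.0.16 under R 4.3.3 (quasi-likelihood test after TMM scaling and filterByExpr, with Benjamini-Hochberg adjustment over all genes that passed the filter), where the authors used DESeq2 1.34.0. CPM were scaled by TMM over 12 libraries. Single members with groups apart had a two-sided exact permutation test. Replicate 3 ratios in lists used log2 CPM with a prior count of 2. Alternatives were another scaling, other count filters, DESeq2 1.42.0, limma 3.58.1 on log2(TPM + 1), a replicate block, all 12 libraries in 1 fit, and libraries left out.

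All 10 members and, per list and comparison, up to 3 genes with the largest change at an adjusted p under 0.05, or else the gene with the smallest p, were named. For likeness, the 5 closest genes were taken. Same-numbered libraries were taken as paired where their deviations from group means correlated over 0.1 in all 3 pairs: in 22Rv1 (0.20, 0.17 and 0.36), not in LNCaP (0.02, 0.01 and 0.19) or across lines (0.01, 0.02 and 0.10). Replicates 1 and 2 of 22Rv1 also passed 0.1 across numbers (0.19 and 0.12), so this rule cannot tell which of them belong together. The fits were tested on simulated data. Gene positions were from GENCODE and promoters from RefSeq. No 2 libraries were identical or within sampling noise.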

Additional observations from a re-analysis of the deposited data

How the results depend on the processing

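Depth limited FOS, FOSB and FOSL1 most, and with 3 libraries a group 1 library can decide a value. In LNCaP, genes with an adjusted p under 0.05 went from 0 to 46 with no filter on low counts, 2 with DESeq2, 1 with limma, 5 without replicate 3 and 0 to 2 with 1 library left out. Those by the study's rule went from 361 to 891, 3, 578, 929 and 284 to 1008, and to 168 with all 12 libraries in 1 fit. Members by this rule went from 2 to 0 with DESeq2 and with all 12 libraries, to 3 with no filter, with the replicate block and without replicate 3, and to 1 to 3 with 1 library left out. In 22Rv1, genes with an adjusted p under 0.05 went from 0 to 1 with DESeq2, 2 with limma and 4 without replicate 3, and genes by the rule from 250 to 532 with no filter, 459 with limma, 420 with the replicate block, 781 without replicate 3, 1232 with all 12 libraries and 183 to 376 with 1 library left out. For the difference between lines, genes with an adjusted p under 0.05 went from 0 to 3 with DESeq2, 2 with limma, 1 without replicate 3 and 0 to 1 with 1 library left out. Genes by the rule went from 610 to 1035 with no filter, 338 with at least 10 counts in every library, 1333 without replicate 3 and 407 to 1041 with 1 library left out, and members by the rule from 0 to 1 without replicate 3 and 0 to 1 with 1 library left out. In 22Rv1 against LNCaP, the 4 members called of 9 became 7 of 10 with no filter, by either rule. In that fit 36.2% of all genes passed the adjusted p and 43.1% the study's rule. The members added were FOSB, ATF3 and FOSL1, each highest in replicate 3 of 22Rv1 NC-mimic. With 1 library left out, 4 to 7 members met the study's rule, beside 54.2% to 69.0% of all genes.

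Signs turned for 9 of 9 members in 22Rv1 when 1 library was left out, with the ends of the range set by a replicate 3 library except for the upper end of JUND: FOS -2.31 to 2.52, FOSB -1.20 to 1.88, JUN -0.27 to 0.87, JUNB -0.53 to 0.88, JUND -0.19 to 0.42, EGR1 -1.34 to 0.89, ATF3 -1.17 to 1.49, IER2 -0.14 to 0.17 and DUSP1 -0.32 to 0.85. FOSB in 22Rv1 was 0.37 with limma, 0.33 with the replicate block and 0.80 without replicate 3, JUND -0.0396 with limma and -0.0173 without replicate 3, and ATF3 -0.0643 without replicate 3. In LNCaP, FOSB was -0.0703 without replicate 3, and with 1 library left out FOSB ran from -0.11 to 0.27, EGR1 from -0.0487 to 0.42 and DUSP1 from -0.0225 to 0.0743. Between lines, JUNB was -0.0326 with limma and -0.38 without replicate 3, and with 1 library left out JUNB ran from -0.54 to 0.48 and JUN from -0.0720 to 0.48. With mimic libraries and no replicate 3, JUN was -0.16, JUNB -0.47 and ATF3 -0.31. The causes were not tested. DESeq2 gave FOS no p and no adjusted p in 22Rv1 and between lines. In LNCaP and between lines the numbers do not pair the libraries, and the replicate block changed no other call of an adjusted p.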
